A study of Mus musculus with 8 samples.

Results

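The matrilins are a family of 4 secreted adaptor proteins of the extracellular matrix, encoded in the mouse by Matn1, Matn2, Matn3 and Matn4. They were taken from the deposited gene table by symbol, as 4 of its 50462 gene identifiers, and all 4 were present. The table holds RNA-seq counts from medial knee cartilage caps of 8 wild-type C57Bl/6J male mice, with 1 library from each mouse. Naive mice (n = 4) were untreated controls sampled at day 0, at 11 weeks of age. DMM mice (n = 4) had the medial meniscus of the left knee destabilised at 11 weeks by cutting its tibial ligament, under isoflurane and buprenorphine, and were sampled at day 42, at 17 weeks of age. Sham-operated mice were not analysed here, and surgery and 6 further weeks of age cannot be told apart. P-values measure the spread between these mice.

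Matrilin chains are built of von Willebrand factor A (vWA) and EGF-like domains, in numbers that differ between members, and a C-terminal coiled coil. The vWA domains bind other matrix proteins, and chains assemble into oligomers through the coiled coil. Matn1 and Matn3 are best known from cartilage, where matrilin-3 links collagen II and IX fibrils, COMP and aggrecan. Matn2 and Matn4 are found more widely, in connective tissue, nerve and other organs as well as cartilage, and matrilins also join collagen VI microfibrils to these networks through biglycan and decorin. Mutations in human MATN3 cause multiple epiphyseal dysplasia, a disorder of growing cartilage.

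The 4 genes lie on different chromosomes and are all annotated as protein coding. In GRCm38 (GENCODE vM21), Matn1 (ENSMUSG00000040533) spans 130944385 to 130955475 of chromosome 4 on the plus strand. Matn2 (ENSMUSG00000022324) spans 34306677 to 34436273 of chromosome 15 on the plus strand. Matn3 (ENSMUSG00000020583) spans 8947929 to 8972028 of chromosome 12 on the plus strand. Matn4 (ENSMUSG00000016995) spans 164389393 to 164405160 of chromosome 2 on the minus strand, and exons near its 5′ end overlap those of Rbpjl on the other strand. No 31-base word of any matrilin transcript occurred in another matrilin. Of the words of Matn2, 3.04% occurred in other genes, and of those of Matn4, 1.81%, so a small part of their counts is uncertain. Rbpjl itself had at most 22.0 estimated counts in a library.

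The 100 bases upstream of the annotated starts are shown so that a reader can set the promoters of the family side by side. RefSeq (GRCm38.p6) gave 4 starts for 3 of the 4 genes, 2 of them for Matn4, and none was given for Matn2. Capitals mark matches, on either strand, to the GC box GGGCGG and to CAAAG, the core of the Sox motif.
Matn1, chr4:130944285-130944384, plus strand: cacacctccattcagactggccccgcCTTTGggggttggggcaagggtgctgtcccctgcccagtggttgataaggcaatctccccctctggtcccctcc
Matn3, chr12:8947829-8947928, plus strand: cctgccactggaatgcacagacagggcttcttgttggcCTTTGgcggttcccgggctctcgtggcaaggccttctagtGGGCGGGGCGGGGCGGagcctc
Matn4 upstream start, chr2:164405161-164405260, minus strand: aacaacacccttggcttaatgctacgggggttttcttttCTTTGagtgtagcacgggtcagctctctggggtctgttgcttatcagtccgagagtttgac
Matn4 downstream start, chr2:164404819-164404918, minus strand: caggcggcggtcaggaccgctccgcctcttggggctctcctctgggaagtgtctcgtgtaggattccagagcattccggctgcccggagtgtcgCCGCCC

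The Matn3 window held 3 overlapping GC boxes starting 22 bases before its start, and the downstream Matn4 window held 1, whereas the Matn1 window and the upstream Matn4 window held none. A GC box occurred in 24.7% of all 32851 promoter windows of this length. CAAAG occurred once in the Matn1, Matn3 and upstream Matn4 windows and in 21.6% of all windows. The TATA box word TATAAA, present in 5.56% of all windows, occurred in none of the 4. Both Matn4 windows overlap annotated Rbpjl exons on the other strand. Such matches are short and describe the letters only.

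Library totals ranged from 12479443 to 16548002 estimated counts. The labels name the cell type as chondrocyte. Of the 10 chondrocyte markers listed, Epyc was low (1.66 to 45.2 normalised counts) and Col9a1 ranged from 98.5 to 1711. Col2a1 and Acan were high in every library. Markers of other cells were high as well. S100a9 of neutrophils had 39110 ± 8225 normalised counts in naive mice against 21782 ± 7219 after DMM (mean ± SD of 4). Dmp1 of osteoblasts and osteocytes had 3035 ± 484 against 6542 ± 967. All 7 neutrophil lineage markers were called lower in DMM (5.92% of all tested genes were). Of 7 osteoblast and osteocyte markers, 6 were called higher (7.75% of all tested genes were). The thresholds for a call are given below. Counts were scaled by median-of-ratios size factors, and values so scaled are called normalised counts. In these bulk libraries, fewer cells of a type and less RNA per cell cannot be told apart.

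To ask how the family differs between DMM and naive mice, each matrilin was read from a DESeq2 fit over all genes. Counts of Matn2 and Matn4 were higher in DMM libraries. Matn3 was spread so widely among mice that no difference was detectable, and Matn1 was close to the limit of detection in both groups. Calls required a DESeq2 adjusted p of at most 0.05 together with at least a 1.5-fold change. Of the 17760 genes with an adjusted p, 2429 were called (13.7%), with 7.75% of the tested genes higher and 5.92% lower in DMM. Matn1 was too low to receive an adjusted p, and 2 of the other 3 matrilins were called, both higher. The balance of calls depended on scaling, since 56.7% of called genes were higher under the scaling used here and 80.6% when libraries were scaled by their total count, which moved the median log2 fold change of tested genes from -0.02 to 0.14. Matn2 and Matn4 were called under both, and under TMM factors.

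Matn2, which encodes the longest and most widely expressed matrilin, had the smallest adjusted p of the family. It had 132.8, 228.8, 284.7 and 348.1 normalised counts in naive libraries 1 to 4 and 770.4, 632.1, 963.2 and 575.8 in DMM libraries 1 to 4. The lowest DMM library thus lay above the highest naive library, a separation also found, in the same direction, for 11.9% of all tested genes. Its mean rose from 248.6 ± 91.3 to 735.4 ± 172.5 (SD of 4 mice). The DESeq2 fit put this at 2.96-fold, or 1.57 on the log2 scale with an SE of 0.26 (adjusted p = 1.43e-07). Leaving out any 1 of the 8 libraries kept the call, and the log2 change then lay between 1.36 (without naive 1) and 1.77 (without naive 4).

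Matn4, a member found in many tissues besides cartilage, was lower in count but moved the same way. Naive libraries 1 to 4 held 18.5, 82.5, 57.8 and 93.0 normalised counts, and DMM libraries 1 to 4 held 150.9, 135.4, 219.0 and 122.7. Again no naive library reached the lowest DMM library, and naive 1 was the lowest by a wide margin. Its mean rose from 62.9 ± 33.1 to 157.0 ± 42.9 (SD of 4 mice). The DESeq2 fit put this at 2.51-fold, or 1.33 on the log2 scale with an SE of 0.38 (adjusted p = 0.00383). Without naive 1 it was 1.02 (DESeq2 adjusted p = 0.00299), the smallest of the 8 fits that left out 1 library, and the call held in all 8. Since exons of Matn4 and Rbpjl overlap and use of strand was not stated, their reads cannot be fully told apart. Rbpjl had 5.67 to 12.8 normalised counts in naive and 9.02 to 18.3 in DMM libraries and was not called (log2 fold change 0.66, DESeq2 adjusted p = 0.372).

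Matn3, the matrilin tied to epiphyseal dysplasia, varied more among mice of 1 group than between groups. Naive libraries 1 to 4 held 18.5, 329.9, 86.7 and 77.1 normalised counts, and DMM libraries 1 to 4 held 24.9, 73.1, 200.9 and 119.1. Naive 2 was the highest and naive 1 the lowest of all 8, so the DMM range lay inside the naive range. The highest naive library was 17.9-fold above the lowest, and the highest DMM library 8.07-fold above the lowest. The naive mean was 128.0 ± 137.9 and the DMM mean 104.5 ± 74.9 (SD of 4 mice), and the fitted log2 difference was -0.29 with an SE of 0.93 (DESeq2 adjusted p = 0.874). The 95% interval of the log2 change, from -2.11 to 1.52, holds the 1.33 of Matn4 and nearly reaches the 1.57 of Matn2. The direction rested on single libraries, since the log2 fold change was 0.79 without naive 2 (DESeq2 adjusted p = 0.589) and 0.04 without DMM 1 (DESeq2 adjusted p = 0.987).

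This spread was wide for genes of its level. The coefficient of variation (SD over mean) of Matn3 was 107.7% among naive libraries, above that of 99.8% of the 4874 tested genes within 2-fold of its mean count, whose median was 15.7%. Among DMM libraries it was 71.7%, above that of 99.0% of the same genes. Matn2 and Matn4 also varied among naive mice, with coefficients of 36.7% and 52.6%, above those of 97.8% and 98.1% of genes of like level. In DMM libraries they were closer to other genes, at 23.45% and 27.3%, above 91.3% and 82.2% of those genes. Naive 1 was the lowest library for Matn2, Matn3 and Matn4 alike.

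Matn1, the first matrilin described and a protein of growth plate and tracheal cartilage, was barely detected. Naive libraries 1 to 4 held 4, 9, 3 and 2 estimated counts and DMM libraries 1 to 4 held 2, 1, 1 and 0. The 4 naive libraries together held 18 counts and the 4 DMM libraries 4, and naive 2 alone held 9. DESeq2's filter on low counts gave it no adjusted p, and without that filter the DESeq2 adjusted p was 0.184. In normalised counts the naive libraries lay between 2.27 and 11.97 and the DMM libraries between 0 and 1.66, which do not overlap. A separation in this direction was found for 1824 of the 17760 tested genes. Naive 4 and DMM 1 both held 2 estimated counts, so for Matn1 the separation rests on the size factors. With so few counts the size of the difference cannot be read, and no change of Matn1 was called at this depth.

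**Figure D1:**
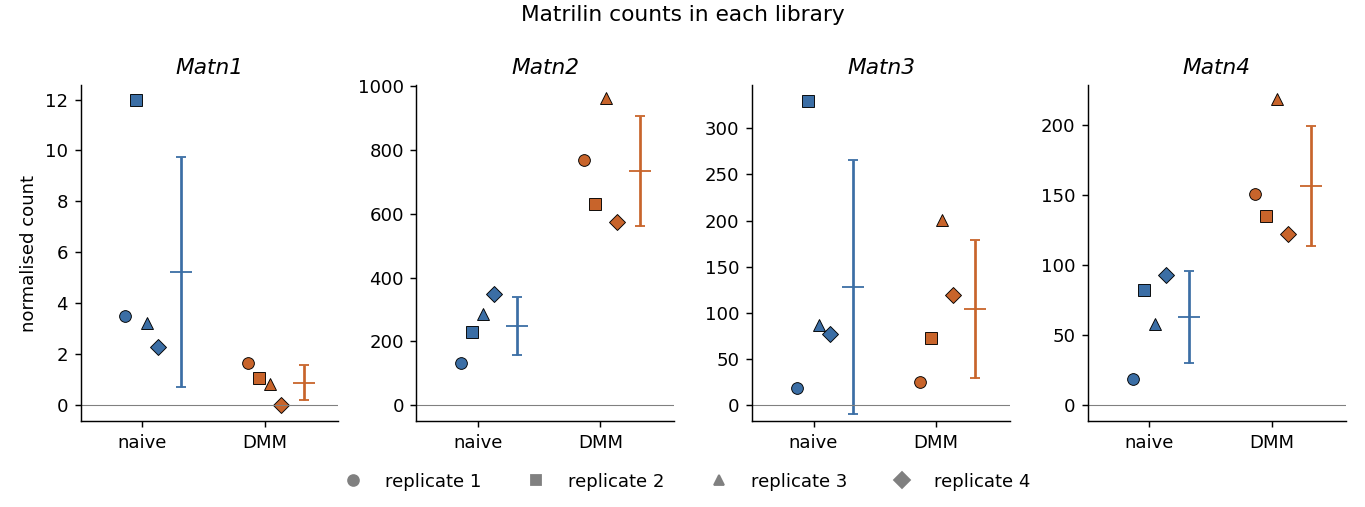
Normalised counts (y axis, linear, a separate scale for each gene) of the 4 matrilins in naive and DMM libraries; each symbol is 1 mouse, its shape the replicate number, and the bar beside the points gives mean ± SD (n = 4). All DMM points lie above all naive points for Matn2 and Matn4, the groups overlap for Matn3, where naive 2 stands at 329.9, and Matn1 never exceeds 11.97.

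To compare levels between members, normalised counts were divided by the length of the union of exons in kilobases. In naive cartilage, mean levels per kilobase were 42.5 ± 45.8 for Matn3, 39.7 ± 14.6 for Matn2, 12.2 ± 6.40 for Matn4 and 2.62 ± 2.26 for Matn1 (SD, n = 4). Matn3 lay above Matn2 only in naive 2, so their order did not differ beyond the spread, and it turned when the longest transcript was used as the length, which raised naive Matn2 to 69.5. Matn2 lay above Matn4 without overlap in naive libraries, whereas Matn4 and Matn1 overlapped between mice although Matn4 was higher in each. In DMM cartilage, Matn2 led at 117.4 ± 27.5 normalised counts per kilobase and stood clear of Matn3 at 34.7 ± 24.9 and Matn4 at 30.4 ± 8.29 (SD, n = 4). Matn3 and Matn4 overlapped, with Matn3 higher in 2 of 4 DMM libraries, and Matn1 was last at 0.444 ± 0.344 (SD, n = 4).

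The make-up of the family was then read from these levels. Matn2 supplied 64.9%, 21.8%, 52.2% and 55.4% of the matrilin counts per kilobase in naive libraries 1 to 4, and 76.3%, 66.4%, 58.4% and 59.2% in DMM libraries 1 to 4. It was the leading member in each library but naive 2, where Matn3 supplied 65.2%. The share of Matn4 was narrow in DMM libraries, between 15.3% and 18.1%, and lay between 9.49% and 17.9% in naive libraries. Matn3 supplied between 5.12% and 25.5% in DMM libraries. Without division by length, all matrilins together summed to 173.2 to 653.2 normalised counts in naive and 817.7 to 1384 in DMM libraries, ranges that did not overlap. Of single tested genes, 11.9% separated in this direction. Matn2 was most of the sum in each DMM library (575.8 of 817.7 in DMM 4), so the sum largely repeats the result of Matn2.

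**Figure D2:**
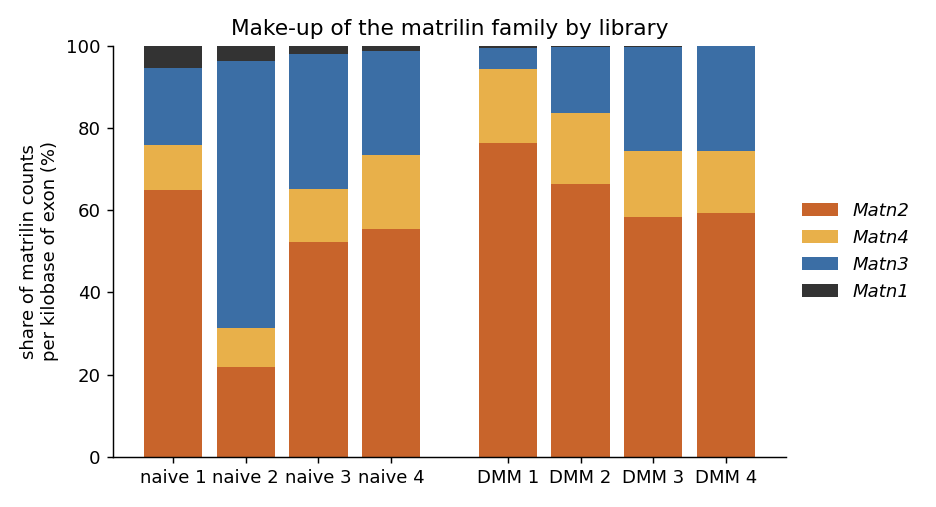
Share of each matrilin (y axis, percent) in the family's normalised counts per kilobase of exon, for each of the 8 libraries (x axis); bars add up to the whole family. Matn2 is the largest part in 7 of 8 libraries, Matn3 takes 65.2% in naive 2 and 5.12% in DMM 1, and Matn1 is at most 5.38%.

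Whether 2 members responded differently was tested with their log2 ratio within each library, which does not depend on how libraries are scaled. All 6 pairs were compared with a two-sided exact permutation test, for which the smallest possible p is 0.0286 with 4 against 4 libraries. The ratio of Matn2 to Matn4 was 2.12 ± 0.58 in naive and 2.23 ± 0.09 in DMM libraries on the log2 scale (SD, n = 4). The difference was 0.11, with an interval of at least 95% confidence from -0.68 to 0.88 (exact permutation p = 0.686, adjusted over 6 pairs 0.686). No difference in response between Matn2 and Matn4 was detected, and differences inside that interval remain possible.

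Neither pair of Matn3 with these members passed. The log2 ratio of Matn2 to Matn3 was higher in DMM by 1.598 (interval -0.56 to 5.44, exact permutation p = 0.143, adjusted over 6 pairs 0.214). That of Matn3 to Matn4 differed by -1.48, DMM minus naive, with an interval from -4.56 to 0.22 (exact permutation p = 0.114, adjusted 0.214). So Matn2 and Matn4 were called and Matn3 was not, but their responses were not shown to differ. The log2 ratio of Matn1 to Matn2 differed by -3.66 and that of Matn1 to Matn4 by -3.54, without overlap (exact permutation p = 0.0286 each, adjusted over 6 pairs 0.0857). Both are at the smallest p that 4 against 4 libraries allow, and adjusted over 6 pairs that value can pass 0.05 only if at least 4 pairs reach it, so the adjusted values say nothing against a difference. Those sizes depend on the 0.5 added to Matn1 counts as low as 0. The ratio of Matn1 to Matn3 differed by -2.06 (exact permutation p = 0.2, adjusted 0.24).

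**Figure D3:**
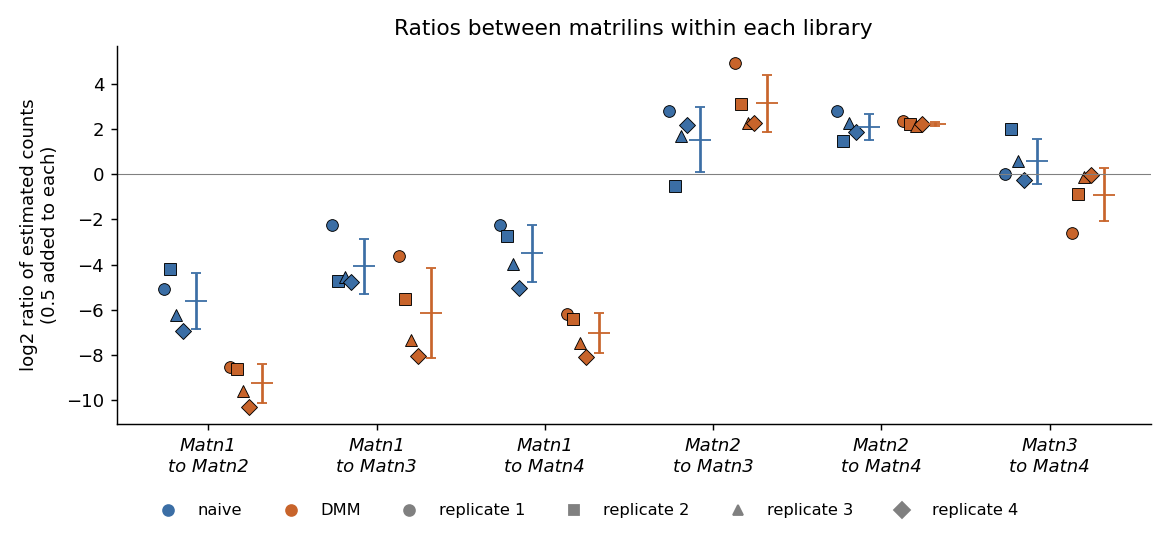
Log2 ratio of estimated counts between 2 matrilins in the same library (y axis; 0.5 added to each count) for the 6 pairs; each symbol is 1 mouse and the bar gives mean ± SD (n = 4). The groups separate for Matn1 to Matn2 and Matn1 to Matn4, and Matn2 to Matn4 stays between 1.47 and 2.82 in all 8 libraries.

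To find which genes follow each matrilin from mouse to mouse, profiles of log2(normalised count + 1), centred on each gene's mean, were compared over the 8 libraries. The measure is the mean absolute difference per library, and the 11010 genes compared averaged 100 normalised counts or more. The libraries share their group difference and depth, so a small value describes likeness in these 8 libraries only. Matn2 was closest to the collagen VI chain genes Col6a3 and Col6a1, with mean differences of 0.081 and 0.0824, and then to Col5a1, which encodes a chain of collagen V (0.102). The median of all genes compared was 0.835. Col6a3 counts were 2802, 5057, 6604 and 8981 in naive libraries 1 to 4 and 16470, 14230, 18960 and 13080 in DMM libraries 1 to 4. Matn2 stayed between 3.88% and 5.08% of the Col6a3 count in all 8 libraries, while Matn2 itself differed 7.25-fold between the lowest and the highest library. Of the Col6a1 count it was 5.85% to 7.06%.

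Matn4 was closest to Col6a3 (0.246), Matn2 (0.253) and Ccn5, which encodes a matricellular protein (0.259). Of the 11010 genes compared, its own family member was thus the second nearest. The likeness was looser than that of Matn2, and Matn4 ranged from 13.9% of the Matn2 count in naive 1 to 36.0% in naive 2, with 19.6% to 22.7% in the DMM libraries.

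Matn3 followed a different set. It was closest to Col9a1, which encodes a chain of the collagen IX that binds matrilin-3, with a mean difference of 0.263 where the median gene stood at 0.999. The next were Col9a3 (0.581), a further collagen IX chain, and Cnmd (0.593), the chondrocyte gene for chondromodulin. Col9a1 had 98.5, 1711, 540.5 and 377.6 normalised counts in naive libraries 1 to 4 and 204.0, 292.4, 848.7 and 782.5 in DMM libraries 1 to 4. As for Matn3, naive 2 was the highest and naive 1 the lowest of all libraries, and the groups overlapped. Matn3 counts were between 12.2% and 25.0% of Col9a1 counts, a 2.05-fold range, while Matn3 itself ranged 17.9-fold and Col9a1 17.4-fold. The distance of Matn3 to Matn2 was 0.947 and that to Matn4 0.803.

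**Figure D4:**
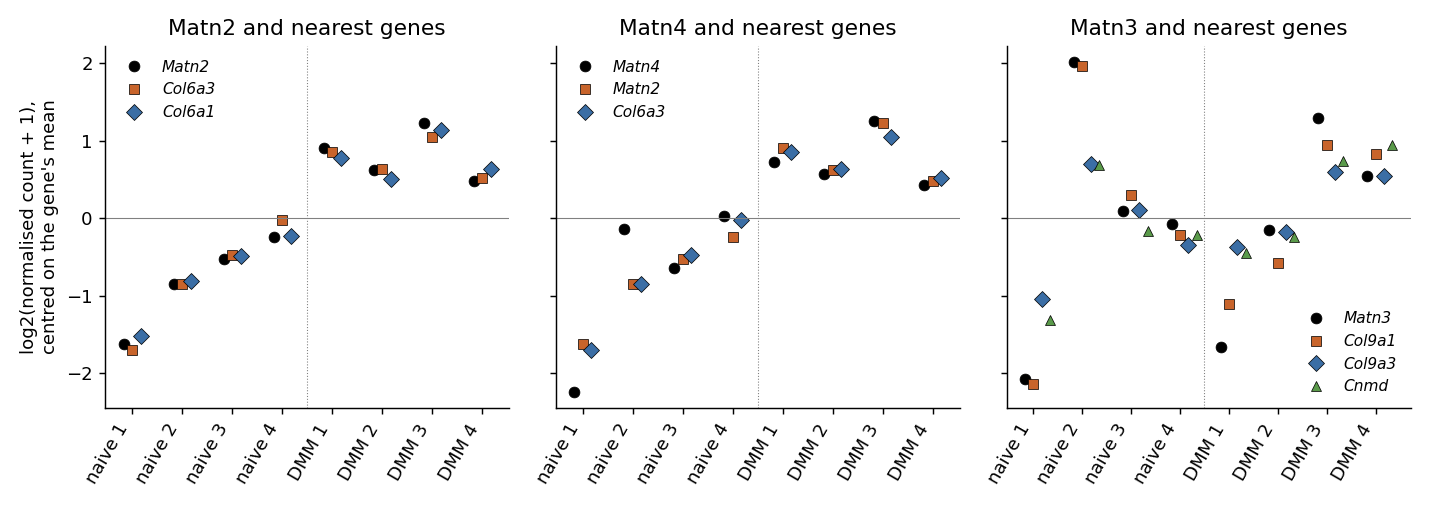
Centred log2(normalised count + 1) (y axis) in the 8 libraries (x axis) of Matn2, Matn4 and Matn3, each with its nearest genes; a dotted line parts naive from DMM libraries. Matn2 and Matn4 lie with Col6a3 and are higher in all DMM libraries, whereas Matn3 lies with Col9a1, peaks in naive 2 and is low in naive 1 and DMM 1.

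The proteins that matrilins bind were read from the same fit. Of 11 partners in the cartilage network, 8 were called higher (7.75% of all tested genes were), 0 lower and 3 were not called, with a median log2 fold change of 1.30, where the median of all tested genes was -0.02. The 3 collagen VI chain genes rose by 1.47 (Col6a1), 1.38 (Col6a2) and 1.42 (Col6a3) on the log2 scale (DESeq2 adjusted p = 4.27e-08, 4.73e-07 and 5.8e-06). Dcn and Bgn, which encode the proteoglycans that link matrilins to collagen VI, rose by 1.30 and 0.85. Comp, Acan and Col2a1 rose by 1.35, 1.09 and 1.41. The 3 partners without a call were the 3 collagen IX chain genes, with log2 fold changes of -0.36 for Col9a1, 0.57 for Col9a2 and 0.22 for Col9a3 (DESeq2 adjusted p = 0.8287, 0.385 and 0.781). Without naive 2, Col9a2 was called at 0.89 (DESeq2 adjusted p = 0.0183).

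The list of 5 epiphyseal dysplasia genes besides Matn3 shares Comp and the collagen IX genes with it. Of the 5, Comp was called higher, 0 were lower and 4 were not called (13.7% of all tested genes were called either way), and without naive 2 Col9a2 was called as well. Slc26a2, a sulfate transporter, showed a log2 change of 0.31 (DESeq2 adjusted p = 0.0463), under the fold threshold.

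The further ligands of matrilin-2 outside the cartilage network were all higher. Of 8 such genes, 8 were called higher (7.75% of all tested genes were). Their median log2 fold change was 1.13, where that of all tested genes was -0.02. Lamb1 and Nid2, of basement membranes, rose by 1.44 and 1.23, Col1a1 by 1.23, Fn1 (fibronectin) by 1.04 and Fbn2 (fibrillin-2) by 0.89. Nid1 rose by 0.62, but its groups overlapped and the call was lost without naive 1, naive 2, naive 3, DMM 2 or DMM 3, where the log2 change was 0.54 to 0.58.

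Other secreted or membrane proteins with vWA domains were read in the same way. Of 10 measured, 3 were called higher (7.75% of all tested genes were), 0 lower and 7 were not called, and 1 listed gene, Col21a1, was not matched to an identifier. Antxr1, which encodes a collagen-binding membrane receptor, rose by 1.61, Col12a1 by 1.25 and Vwa1 by 0.90. Col14a1 showed a log2 change of 1.44 with wide spread (DESeq2 adjusted p = 0.0682), and was called at 1.70 without naive 4 and 1.74 without DMM 2. Antxr2 showed a log2 change of 0.45 (DESeq2 adjusted p = 0.000252), under the fold threshold. Vit and Col22a1, at 0.08 and 0.25, did not pass, and Vwa2 had no adjusted p and could not be called.

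**Figure D5:**
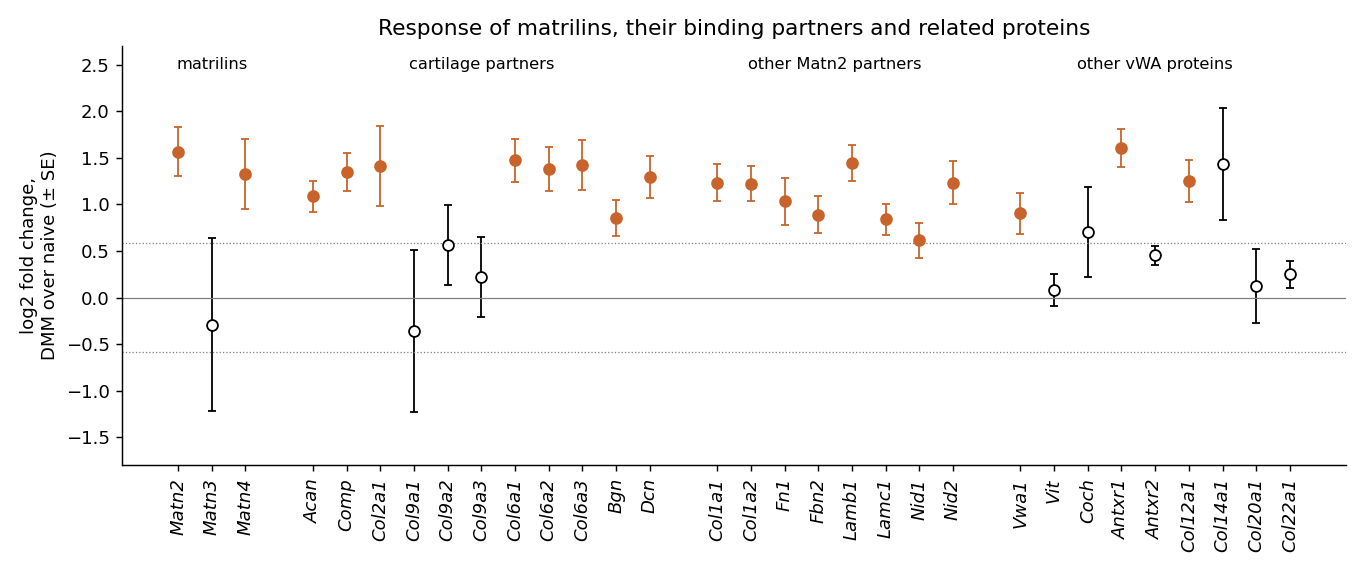
Log2 fold change of DMM over naive ± SE (y axis, DESeq2, n = 4 per group) for the 3 matrilins with an adjusted p, their binding partners and other vWA proteins; filled points were called, and dotted lines mark 1.5-fold. Matn2 and Matn4 lie among called partners such as the collagen VI genes, and Matn3 at -0.29 beside Col9a1 at -0.36 with similarly long error bars.

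Transcription factors known to act on the promoters of cartilage matrilins were listed as well. Of 7, 3 were called higher (7.75% of all tested genes were), 0 lower and 4 were not called. Sox9, the master factor of chondrocytes, rose by 1.07, and the nuclear factor I genes Nfix and Nfib rose by 0.65 and 0.60. Nfib lost its call without naive 1, naive 2 or DMM 3 (0.49 to 0.57), and Nfix without DMM 3 (0.58). Nfic showed a log2 change of 0.48 (DESeq2 adjusted p = 0.001035), under the fold threshold, and Sox5 and Nfia, at 0.34 and 0.07, did not pass. Sox6, a partner of Sox9, showed a log2 change of -0.57 (DESeq2 adjusted p = 0.00557), just short of the fold threshold, without overlap between groups, and was called lower without naive 3, naive 4 or DMM 3 (-0.72 to -0.63). Of the 2 aggrecanases that cut matrilins, Adamts4 rose by 0.79 (DESeq2 adjusted p = 0.0339), a call lost under edgeR, with no independent filtering, against a 1.5-fold null and without naive 1, naive 2, DMM 1, DMM 3 or DMM 4 (0.63 to 0.80), and Adamts5 showed a log2 change of -0.22 (DESeq2 adjusted p = 0.468).

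Some markers of other cell types were higher in DMM libraries as well. Of 4 tendon and ligament markers, 3 were called higher, and their summed normalised counts ranged from 98.5 to 175.7 in naive and from 190.3 to 499.7 in DMM libraries. Of 4 smooth muscle and pericyte markers, 3 were higher (906.7 to 2002 and 2221 to 4145), and of 7 fibroblast markers 3 were higher (2997 to 4441 and 4147 to 7187, which overlap). The fibroblast marker Pi16 was lower without overlap, at -0.35 on the log2 scale (DESeq2 adjusted p = 0.00966), under the fold threshold. The called tendon and ligament marker Kera was high only in DMM 1 and DMM 3 (78.8 and 103.7 normalised counts). It had 10.7 in DMM 2, 9.93 in DMM 4 and 5.28 to 10.6 in naive libraries. Tnmd, also called, was highest in DMM 1 and DMM 3 as well, and so were Matn2 and Matn4. Among DMM libraries the same held for each fibroblast marker but Pi16. Dpt, for example, had 1278 and 1743 normalised counts there, against 336.5 in DMM 2 and 549.6 in DMM 4. It did not hold for the tendon marker Mkx or the pericyte marker Rgs5. All 6 hypertrophic chondrocyte markers were higher (sums of 16220 to 22340 in naive and 32740 to 69500 in DMM libraries). Ibsp is in this list and in that of osteoblasts and osteocytes, so the counts of these 2 lists share a gene. No fibroblast, tendon or smooth muscle marker was at 0 in any library. Of the remaining lists, 1 of 6 superficial zone markers, 1 of 5 osteoclast markers and 2 of 5 endothelial markers were higher, 5 of 6 erythroid and 1 of 6 haematopoietic stem cell markers were lower, and no B cell or macrophage marker was called. Counts of 1 in 5 or 6 are near the background of 7.75% higher and 5.92% lower for lists of that size. Of 6 skeletal muscle markers, 4 had no adjusted p and could not be called, and the other 2 were not. Myh4, a muscle myosin gene, stood at 539.9 normalised counts in DMM 1 and 277.2 in naive 3, and at 1.33 to 57.0 in the other libraries. The part of these cells in the rise of Matn2 and Matn4 was not tested. Of 10 chondrocyte markers, 4 were called higher (Col2a1, Acan, Col11a1 and Sox9), 0 lower and 6 not called.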

How the data were processed

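RNA-seq of medial knee cartilage caps from 4 naive and 4 DMM mice was analysed. Values are the estimated counts per gene that the authors deposited, made per the study's methods with Trimmomatic 0.39, Kallisto 0.46.1 and tximport 1.14.0. Their sources name GRCm38 with a release of another build, and the labels a human build, so positions here are from GENCODE vM21 by identifier. Whether strand was used was not given, and the labels and the methods name different library kits. Kallisto divides shared reads, and 39.2% of values are not whole, so estimated counts were rounded, without length offsets. DESeq2 1.42.0 in R 4.3.3 (Wald test, all 8 libraries, no covariates, unshrunken log2 fold changes) followed the methods of the study, with adjustment over all genes. edgeR 4.0.16 and limma 3.58.1 were alternatives. The fits and the permutation test were tested on simulated data. Intervals of ratios hold the shifts that the exact test did not refuse at 0.05. Counting error is the only error that depth covers.

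Every matrilin was named, with the 3 nearest genes by profile, and members of lists of binding partners, vWA proteins, dysplasia genes, regulators, aggrecanases and cell type markers. The result of 1 marker list is not reported here. The family and all lists were chosen with earlier results of these data known, the rise of Matn2 among them. Symbols were found for 48855 identifiers. Library totals of 12479443 to 16548002 counts leave genes such as Matn1, at 0 to 9 counts, without usable precision.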

Additional observations from a re-analysis of the deposited data

Results flagged for a closer look

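Among 110 groups of 4 values (matrilin counts, ratios and shares, library measures and listed genes), 7 had 1 value far from the other 3 by Dixon's test, where chance alone gives about 5.5. For Matn1, naive 2 had 11.97 normalised counts and the other naive libraries 2.27 to 3.52. The log2 ratio of Matn1 to Matn3 was -2.26 in naive 1 and -4.78 to -4.54 in the other naive libraries. Naive 2, which also had the highest Matn3 count, reached 10 counts in 16861 genes, and the other naive libraries did so in 18349 to 18556. Of the binding partners, Dcn stood at 23656 normalised counts in DMM 3, where the rest of its group held 12856 to 13895. Nid1 stood at 1019 in naive 4, where the rest held 634.6 to 675.3. Antxr2 was 917.2 in naive 3 (971.2 to 978.8) and Sox9 918.3 in naive 3 (804.9 to 817.0).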

How the results depend on the processing

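Among the alternative settings, dropping the fold threshold reuses the main fit, so no call could be lost there. The call of Matn2 held in all 9 alternative settings and all 8 fits that left out 1 library, with edgeR adjusted p = 0.00568. That of Matn4 held in all but the test against a 1.5-fold null (log2 fold change 1.33, DESeq2 adjusted p = 1), with edgeR adjusted p = 0.0355. The Matn3 value, near 0 and never called, reversed under limma-voom (0.19) and with the replicate block (0.083), and ranged from -0.82 to 0.79 when 1 library was left out. Matn1 was not tested by edgeR, limma or the filter on 10 counts. Without 1 library, the difference in the ratio of Matn2 to Matn4 ranged from -0.10 to 0.35. Adjusted p over the pairs stayed above 0.05 in all settings, which the smallest possible p nearly fixes, so it says nothing about stability. The number of genes called was 4010 without a fold threshold and 94 against the 1.5-fold null, by construction, and 1858 to 2842 without 1 library.

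Replicate numbers recur in both groups, yet libraries with the same number showed no joint deviation from their group means (correlations 0.05, 0.06, -0.12 and 0.12 over 18403 genes). A fit with the replicate block called 2081 genes, and Matn2 and Matn4 kept their calls. For ratios between members, the exact sign-flip test over pairs cannot go below p = 0.125. With the longest transcript as length, Matn2 in DMM libraries was at 205.6 per kilobase, against 117.4. Against the 1.5-fold null, 2 of 11 cartilage partners and 1 of 8 further matrilin-2 partners were called, and scaling by total count raised the vWA proteins called from 3 to 5. Where no construction shows it, the cause was not tested.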
